A study of Homo sapiens with 16 samples.

Results

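A549 cells, a line grown from a human lung adenocarcinoma, were treated with the compound 6D7 for 48 h or for 4 h, and what changed between these times is described here from 4 of the 16 libraries of the series. The libraries were chosen by their titles, 2 for 6D7 at 48 h and 2 for 6D7 at 4 h. The cells of every group overexpressed CD63-Nluc, a fusion of CD63, a tetraspanin carried by exosomes, with the luciferase Nluc. The labels print 4 µM for each compound and for the solvent DMSO as well. Cells given the compounds 5G6 or 7F8 for 48 h or 4 h (2 libraries each) gave the change under other compounds, and cells given DMSO for 48 h or 4 h (2 libraries each) gave the change over the same time without a compound. The series text calls the replicates biological, and the p-values below measure the spread between these samples. 6D7 is a code name that the labels call an inhibitor, and its structure was not given. A549 cells keep wild-type p53, lack a working LKB1 (STK11), the main kinase that activates AMPK, and carry a KEAP1 defect that leaves the antioxidant factor NRF2 active.

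Several regulated programs bear on such a time course. E2F transcription factors switch on the genes of DNA replication when a cell leaves G1, and the genes of mitosis follow later in the cycle. Glucose breakdown to lactate is raised by HIF factors when oxygen is short. TFEB and related factors raise lysosome and autophagy genes, ATF4 answers amino acid shortage and stress of the endoplasmic reticulum or mitochondria, and SREBP2 answers low sterol in the endoplasmic reticulum membrane.

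The 6D7 libraries held 6.10 and 6.87 aligned gigabases at 48 h, and 6.70 and 8.62 at 4 h, within the 6.10 to 8.86 of the series. Genes with at least 1 TPM (a relative transcript level corrected for gene length) numbered 14429 and 14668 at 48 h, and 14168 and 13696 at 4 h. Mitochondrial genes took 6.13 and 6.48 percent of the deposited TPM at 48 h of 6D7 and 18.9 to 32.5 percent in the other 14 libraries. The gap lay mainly in 1 tRNA entry, TRNC, listed at 0 at 48 h and at 236525 and 160819 TPM at 4 h of 6D7. It therefore shows no fall of the other mitochondrial RNA. The values below were rescaled without mitochondrial genes. Keratins of the epithelial line were abundant, KRT8 at 1502 to 3346 TPM at 48 h and 2867 to 2948 TPM at 4 h of 6D7, while EPCAM, another epithelial marker, was low at 2.04 to 3.57 TPM at 48 h and 4.63 to 10.8 TPM at 4 h. Of the markers of other cell types, PTPRC, which defines leukocytes, reached at most 0.0967 TPM in any of the 16 libraries, and CDH5, which defines endothelium, at most 0.0877 TPM. DCN, a fibroblast gene, was listed at 0 in all 16, but so were the long RNAs MALAT1 and NEAT1, so a listed 0 shows no absence. COL1A1, a collagen gene on the fibroblast list, had 3.48 to 4.73 TPM at 48 h and 3.27 to 18.0 TPM at 4 h of 6D7. CD14, a monocyte gene, had 1.58 to 3.86 TPM at 48 h and 4.31 to 10.04 TPM at 4 h. The 10 fibroblast genes summed to 5.85 and 5.92 TPM at 48 h and 21.9 and 6.19 TPM at 4 h of 6D7. In DMSO cells they summed to 23.8 and 10.9 TPM at 48 h and 23.3 and 7.27 TPM at 4 h of DMSO. The 10 endothelial genes summed to 1.56 and 1.98 TPM at 48 h and 7.98 and 3.30 TPM at 4 h of 6D7. The 10 leukocyte genes summed to 5.28 and 5.55 TPM at 48 h and 11.6 and 5.77 TPM at 4 h. In each of these sums replicate 1 at 4 h was the highest of the 4 6D7 libraries. None of the 5 leukocyte, fibroblast and endothelial genes tested was called. The part of such RNA in the results was not tested. In these bulk libraries fewer cells of a kind and less RNA per cell cannot be told apart.

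At 48 h of 6D7 most genes of DNA replication and some of mitosis and ribosome assembly had fallen relative to 4 h, and some of glycolysis, low-oxygen response, lysosome and autophagy had risen. Limma, fitted on log2(TPM + 1) to all 16 libraries, tested 15958 genes and called 575 of them (3.6%) at a Benjamini-Hochberg adjusted p below 0.05, 290 higher (1.82%) and 285 lower (1.79%) at 48 h than at 4 h. Of these, 448 differed at least 2-fold. Both 48 h libraries of 6D7 lay above both 4 h libraries, or both below, in 7713 of the 15958 genes (48.3%). A lack of overlap between these times thus says little on its own. The rule that named the largest called changes also required it. The share of all genes that lay apart from the DMSO libraries as well was not counted. In DMSO cells limma called 0 genes between the same times, with 375 at an unadjusted p below 0.05 against 3322 under 6D7. The direct difference of the 6D7 change from the DMSO change had 0 genes called (0%) and 1236 at an unadjusted p below 0.05, so no gene met the adjusted threshold for a change that belonged to 6D7 beyond time in culture. That difference holds the 6D7 change itself. Of the 575 called genes, 14 moved in DMSO cells by at least 50 percent of the 6D7 change.

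The number of calls rested on single libraries of the pair of groups. Limma called 7 higher and 0 lower without 6D7 4 h replicate 1, 4 and 0 without 6D7 4 h replicate 2, 6 and 6 without 6D7 48 h replicate 1, and 597 and 625 without 6D7 48 h replicate 2. It called 161 and 150 without either DMSO 4 h library, and 0 (2209 at an unadjusted p below 0.05) when fitted to the 4 6D7 libraries alone. With mitochondrial genes kept as deposited, 1503 were called higher and 156 lower, 90.6 percent of calls higher against 50.4 percent as reported, and the median over all genes was 0.37 in place of 0.11 on the log2 scale. Counts of list members called in that setting, given below, share this rise of all genes. None of the 575 genes changed direction in any of these fits. Of 72 called genes named in the text, 5 (LIPA, ATP6AP1, SLC16A3, SLC3A2 and ATP5MC1) lost the call in each of the 8 fits that left out a 6D7 or DMSO library. Fits without a DMSO library kept both 6D7 groups whole. A call kept in those fits does not show that it holds without a 6D7 library.

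**Figure D1:**
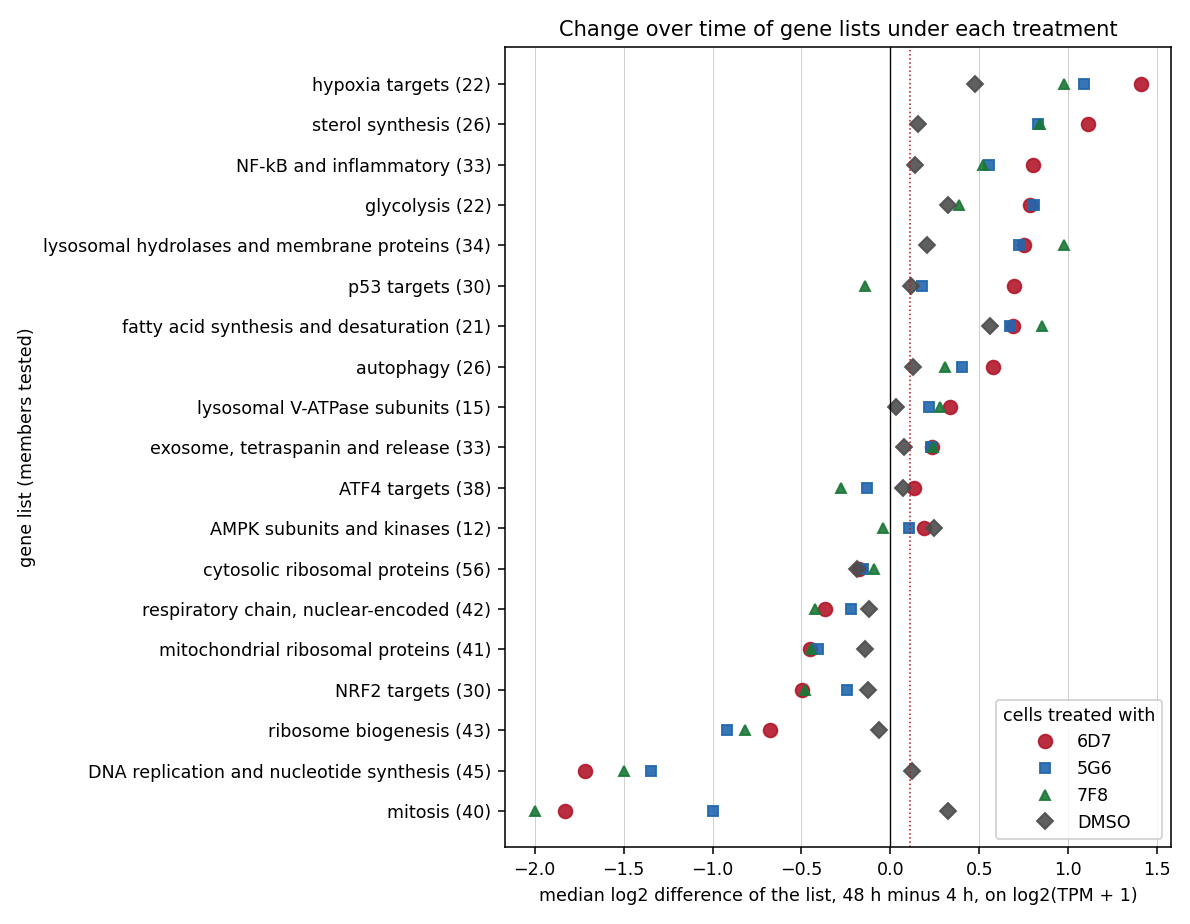
Median log2 difference between 48 h and 4 h for 19 gene lists, on log2(TPM + 1), in cells given 6D7, 5G6, 7F8 or DMSO; the number of tested members stands in brackets, and the dotted line is the median of all tested genes under 6D7 (0.11). The replication and mitosis lists lie at -1.72 and -1.83 under 6D7 and at 0.12 and 0.32 under DMSO.

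DNA replication genes fell. Of 45 tested genes of replication and nucleotide synthesis, 31 were called lower and 0 higher at 48 h than at 4 h of 6D7, beside 1.79% of all genes called lower, and the median log2 difference was -1.72 beside 0.11 over all genes. In DMSO cells the median of the same 45 genes was 0.12 with 0 called. The summed level of the list was 698 and 1217 TPM at 48 h and 2466 and 3251 TPM at 4 h of 6D7. In DMSO cells it was 3729 and 3233 TPM at 48 h and 3116 and 3496 TPM at 4 h of DMSO. The 48 h libraries of 6D7 thus lay below all 6 others, the first replicate lower than the second. Without the filter on low values 17 of the 45 were called lower.

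The called genes covered several steps of replication. MCM3, a subunit of the helicase ring that unwinds the template, had 14.2 and 26.6 TPM at 48 h against 70.3 and 82.2 TPM at 4 h of 6D7, and 107 and 86.1 TPM at 48 h against 89.5 and 81.5 TPM at 4 h of DMSO. Its log2 difference under 6D7 was -1.91 ± 0.26 (SE; limma, adjusted p = 0.0119), and both 48 h libraries lay below the 6 others. Log2 differences of -1.72 for MCM2, -2.03 for MCM4, -2.59 for MCM5, -2.03 for MCM6 and -2.26 for MCM7, the other ring subunits, were called too (adjusted p = 0.0142, 0.0203, 0.0156, 0.0156 and 0.0158). MCM5 had 4.98 and 17.0 TPM at 48 h and 57.8 and 65.0 TPM at 4 h of 6D7. GINS2, part of the GINS complex that joins the ring at firing origins, had 2.37 and 6.56 TPM at 48 h and 29.2 and 40.9 TPM at 4 h (log2 difference -2.82 ± 0.39, adjusted p = 0.0123), and CDC45, a further part of that helicase, had 1.04 and 7.88 TPM at 48 h and 25.9 and 39.6 TPM at 4 h (-2.96 ± 0.66, adjusted p = 0.0355). For MCM5, GINS2 and CDC45 both 48 h libraries of 6D7 again lay below the 6 others. For CDC45 the rule of choice required no overlap with the 4 h libraries of 6D7.

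The loader, the clamp and the activator of the set fell as well. CDC6, which loads the helicase ring onto origins, had 4.14 and 16.7 TPM at 48 h and 41.7 and 70.8 TPM at 4 h of 6D7 (-2.54, adjusted p = 0.0264). PCNA, the sliding clamp of the polymerases, had 181 and 261 TPM at 48 h and 509 and 618 TPM at 4 h (-1.36 ± 0.23, adjusted p = 0.0197). E2F1, the activator of this gene set, had 5.09 and 20.3 TPM at 48 h and 49.4 and 64.1 TPM at 4 h (-2.33 ± 0.48, adjusted p = 0.0278). PCNA, E2F1, CDC6, MCM4, MCM6 and MCM7 were picked from the list after their values were seen, and for CDC6, PCNA and E2F1 too the 48 h libraries lay below the 6 others. Called members of the list numbered 0 without either 6D7 4 h library, 1 without 6D7 48 h replicate 1, 36 without 6D7 48 h replicate 2 and 21 without either DMSO 4 h library.

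The promoters of MCM3 and GINS2, the called list members with the smallest p among those with a single RefSeq start, are shown because so many members moved together. Each line is the 250 bases before the start of the gene on its own strand (RefSeq, GRCh38.p14), MCM3 at chr6:52284743-52284992, minus strand, and GINS2 at chr16:85688955-85689204, minus strand, with capitals at the E2F core letters TTGGCGC or TTCCCGC on either strand.
MCM3: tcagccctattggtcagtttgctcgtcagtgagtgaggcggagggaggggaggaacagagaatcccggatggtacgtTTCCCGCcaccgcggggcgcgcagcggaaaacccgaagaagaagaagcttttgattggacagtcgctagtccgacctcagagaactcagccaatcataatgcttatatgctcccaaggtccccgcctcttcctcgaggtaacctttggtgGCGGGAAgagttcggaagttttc
GINS2: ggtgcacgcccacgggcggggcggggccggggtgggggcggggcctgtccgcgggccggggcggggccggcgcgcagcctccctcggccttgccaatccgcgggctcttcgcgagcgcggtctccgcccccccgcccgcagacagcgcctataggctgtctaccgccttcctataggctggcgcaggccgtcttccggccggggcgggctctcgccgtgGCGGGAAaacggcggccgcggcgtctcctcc
MCM3 held 2 matches and GINS2 held 1. Of the 50 windows found for 37 of the 45 list genes, 23 (46%) held the letters, beside 11.3% of 16182 windows for 11264 of the 15958 tested genes. The median GC content was 68.2 percent in the list windows and 64.4 percent in all windows, and a match of letters is not a binding site.

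Some mitosis genes fell, and their 48 h replicates lay far apart. Of the 40 tested genes 7 were called lower and 0 higher, beside 1.79% of all genes called lower. Their median was -1.83, against 0.32 in DMSO cells. Their summed level was 474 and 1497 TPM at 48 h and 2476 and 3483 TPM at 4 h of 6D7. CDC20, which activates the anaphase-promoting complex, had 7.20 and 28.8 TPM at 48 h and 91.5 and 141 TPM at 4 h of 6D7, against 159 and 118 TPM at 48 h and 103 and 129.6 TPM at 4 h of DMSO. Its log2 difference under 6D7 was -2.87 ± 0.59 (adjusted p = 0.027), with the first 48 h replicate well under the second and both below the 6 others. UBE2C, the ubiquitin carrier of the same complex, had 13.9 and 69.8 TPM at 48 h and 197 and 293 TPM at 4 h (-2.89 ± 0.63, adjusted p = 0.0315). AURKB, the kinase that corrects chromosome attachment, had 4.70 and 28.5 TPM at 48 h and 84.8 and 137 TPM at 4 h (-3.07 ± 0.73, adjusted p = 0.0438), and BIRC5 (survivin), its partner in the passenger complex, had 25.3 and 49.9 TPM at 48 h and 109 and 148 TPM at 4 h (-1.81 ± 0.38, adjusted p = 0.0288).

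2 further genes of mitosis had large called falls. PKMYT1, a kinase that holds CDK1 inactive, had 1.42 and 14.6 TPM at 48 h and 38.1 and 63.4 TPM at 4 h of 6D7 (-3.03 ± 0.70, adjusted p = 0.039), and KIF18B, a kinesin that shortens astral microtubules, had 1.10 and 10.7 TPM at 48 h and 30.2 and 35.0 TPM at 4 h (-2.76 ± 0.66, adjusted p = 0.0441). CCNB1, the mitotic cyclin, had 12.7 and 74.2 TPM at 48 h and 147 and 212 TPM at 4 h and was not called (-2.47, adjusted p = 0.0691), and MKI67, the proliferation antigen Ki-67, had 4.96 and 21.3 TPM at 48 h and 37.7 and 28.7 TPM at 4 h (-1.56, adjusted p = 0.21). The second 48 h replicate stood above the first for PKMYT1, KIF18B, CCNB1 and MKI67, and both lay below the 6 other libraries of 6D7 and DMSO. Called mitosis members numbered 0 without either 6D7 4 h library or without 6D7 48 h replicate 1, 30 without 6D7 48 h replicate 2, 3 without either DMSO 4 h library, 4 without either DMSO 48 h library and 0 without the filter on low values.

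Among 16 G1 cyclins, kinases and inhibitors 1 was called, CCND3. CCND3 (cyclin D3), which drives CDK4 and CDK6 in G1, had 60.6 and 139 TPM at 48 h against 398 and 409.7 TPM at 4 h of 6D7, and 452 and 405 TPM at 48 h against 537 and 513 TPM at 4 h of DMSO (6D7 log2 difference -2.12 ± 0.30, adjusted p = 0.0131). CCND1 (cyclin D1) had 211 and 158 TPM at 48 h and 315 and 195 TPM at 4 h, and its log2 difference of -0.44 ± 0.37 did not pass (adjusted p = 0.535). CDKN1A (p21), the p53-induced inhibitor of CDK2, had 806 and 309 TPM at 48 h and 265 and 155 TPM at 4 h of 6D7 and 158 and 168 TPM at 48 h and 198 and 149 TPM at 4 h of DMSO. The 6D7 difference of CDKN1A was 1.29 ± 0.38 (adjusted p = 0.083), while against DMSO at 48 h it was called (1.61, adjusted p = 0.0328). Of 30 tested p53 targets 1 was called higher (3.33%), beside 1.82% of all genes, with a list median of 0.69 under 6D7 and 0.12 under DMSO. This was TP53INP1, which links p53 to cell death and autophagy. It had 16.4 and 13.1 TPM at 48 h and 3.53 and 2.62 TPM at 4 h (1.95 ± 0.32, adjusted p = 0.0196). MDM2, which p53 induces and which degrades it, had 75.1 and 34.8 TPM at 48 h and 25.5 and 22.0 TPM at 4 h (1.08, adjusted p = 0.0644).

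**Figure D2:**
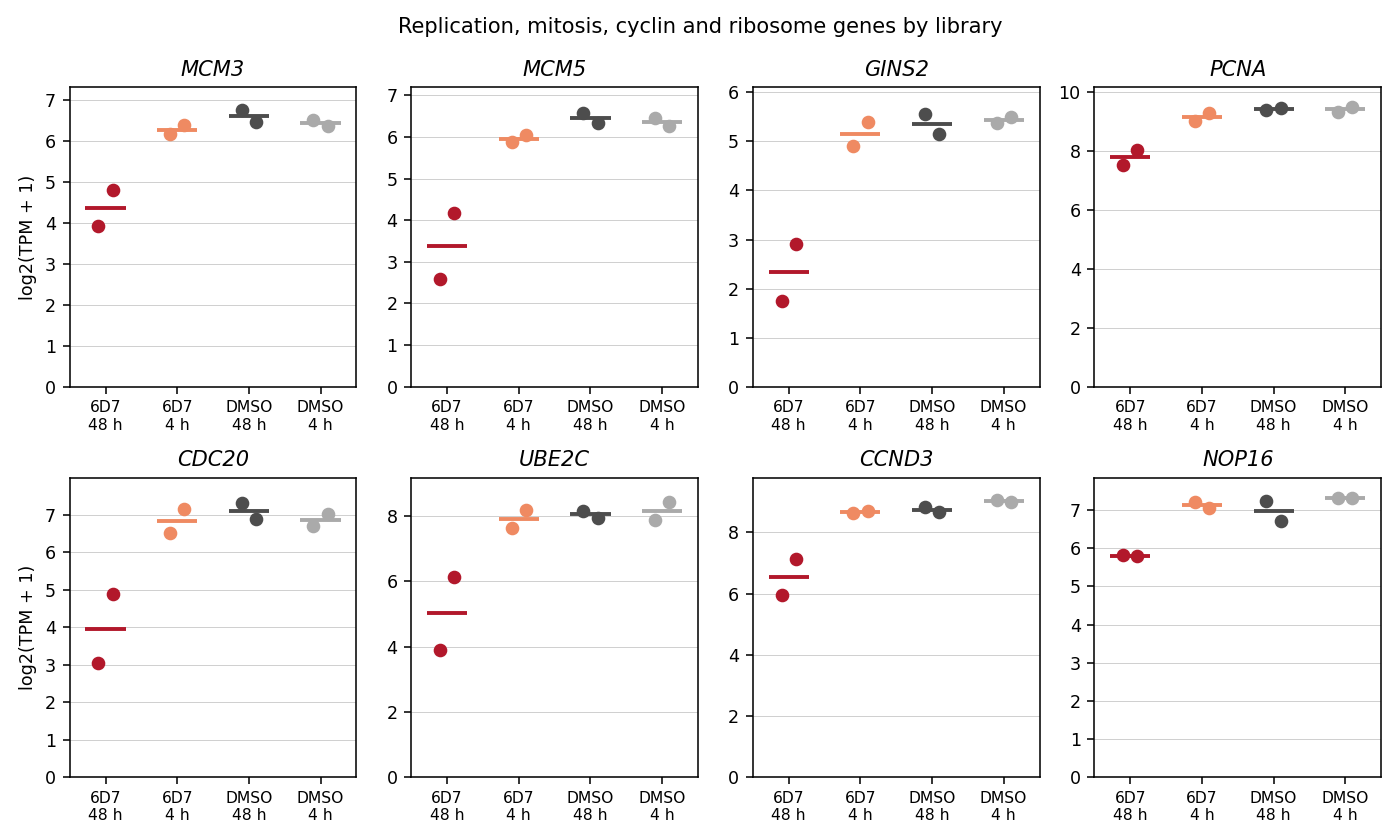
Levels of 8 growth and cell cycle genes as log2(TPM + 1) in each library of 6D7 at 48 h and 4 h and of DMSO at 48 h and 4 h; points are the 2 replicates and bars their mean. In each panel both 48 h libraries of 6D7 lie below the other 6.

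Part of the ribosome assembly genes fell. Of 43 tested ribosome biogenesis genes 10 were called lower and 0 higher, beside 1.79% of all genes called lower. The median was -0.68, against -0.06 in DMSO cells, and 42 of the 43 differences were negative. NOP16, a factor of the large subunit, had 55.6 and 54.4 TPM at 48 h and 147 and 133 TPM at 4 h of 6D7 (-1.33 ± 0.18, adjusted p = 0.0119), close within each pair of replicates. BYSL (bystin), needed for the small subunit, had 22.7 and 24.9 TPM at 48 h and 59.4 and 63.5 TPM at 4 h (-1.33 ± 0.20, adjusted p = 0.0156), and DKC1 (dyskerin), which makes pseudouridine in ribosomal RNA, had 66.5 and 58.0 TPM at 48 h and 135 and 175 TPM at 4 h (-1.29 ± 0.24, adjusted p = 0.0225). The 56 cytosolic ribosomal protein genes had 0 called and 4 at an unadjusted p below 0.05, and a median of -0.17, beside -0.19 in DMSO cells. MYC, a driver of ribosome biogenesis, had 42.3 and 27.8 TPM at 48 h and 75.6 and 80.2 TPM at 4 h and missed the threshold (-1.16, adjusted p = 0.0763).

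Nuclear genes of mitochondria gave fewer calls. Of 41 mitochondrial ribosomal protein genes 6 were called lower, beside 1.79% of all genes (list median -0.45, against -0.15 in DMSO cells). MRPL12, a protein of the large mitochondrial subunit, had 181 and 230.5 TPM at 48 h and 439.7 and 438 TPM at 4 h of 6D7 (-1.10 ± 0.19, adjusted p = 0.0203), and MRPL24, of the same subunit, had 105 and 183 TPM at 48 h and 299 and 303 TPM at 4 h (-1.11 ± 0.22, adjusted p = 0.0253). Of 42 respiratory chain genes 2 were called lower, COX8A of cytochrome oxidase (-0.63) and ATP5MC1 of the ATP synthase rotor (-0.72), with 41 of 42 differences negative under 6D7 and 36 of 42 in DMSO cells (median -0.12). In that list 0 were called without any 1 of the DMSO or 6D7 4 h libraries or 6D7 48 h replicate 1, without the filter on low values, without the variance trend or with mitochondrial genes kept in the TPM total, and 4 without 6D7 48 h replicate 2. With mitochondrial genes kept in the total the medians of these lists were -0.15 and -0.06. HSPE1, the partner of the mitochondrial chaperone HSPD1, was the 1 called gene of 22 heat shock chaperones (447 and 445 TPM at 48 h, 761 and 785 TPM at 4 h, -0.79 ± 0.19, adjusted p = 0.0429). Called members were 0 in both the ribosome biogenesis and the mitochondrial ribosomal list without either 6D7 4 h library or without 6D7 48 h replicate 1.

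Part of the glycolysis genes rose. Of 22 tested, 10 were called higher and 0 lower, beside 1.82% of all genes called higher, with a median of 0.78 against 0.32 in DMSO cells. The summed level was 27469 and 37051 TPM at 48 h and 21624 and 22644 TPM at 4 h of 6D7. In DMSO cells it was 23301 and 27103 TPM at 48 h and 21149.7 and 23499 TPM at 4 h, so the second DMSO 48 h library came close to the lower 48 h library of 6D7. HK2 (hexokinase 2), which traps glucose in the cell, had 33.6 and 16.9 TPM at 48 h against 1.29 and 1.69 TPM at 4 h of 6D7, and 1.00 and 2.66 TPM at 48 h against 0.862 and 1.28 TPM at 4 h of DMSO. Its log2 difference under 6D7 was 3.32 ± 0.39 (adjusted p = 0.0077), and the lower of the 48 h libraries stood above all 6 others. ALDOC, an aldolase, had 108 and 246 TPM at 48 h and 17.1 and 10.99 TPM at 4 h (3.48 ± 0.57, adjusted p = 0.0196). PGK1, which makes the first ATP of the pathway, had 796 and 1240.1 TPM at 48 h and 383 and 367 TPM at 4 h (1.40 ± 0.22, adjusted p = 0.0165), and PFKFB4, which sets the level of the activator fructose 2,6-bisphosphate, had 34.3 and 32.2 TPM at 48 h and 8.77 and 3.97 TPM at 4 h (2.30 ± 0.37, adjusted p = 0.0196). For each of these genes the groups did not overlap, as in 48.3% of all tested genes between the times of 6D7. For ALDOC the rule of choice required it.

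Called genes included the entry and exit of the pathway. SLC2A1, the glucose transporter GLUT1, was called higher by 0.93, SLC16A3, the lactate exporter, by 1.33, and PDK1, the kinase that keeps pyruvate out of mitochondria, by 2.26 on the log2 scale (adjusted p = 0.0438, 0.0454 and 0.0197). SLC16A3 kept its call in 0 of the 8 fits without 1 library. PDK1 had 34.2 and 40.0 TPM at 48 h and 7.28 and 6.59 TPM at 4 h of 6D7, and ENO2, the neuronal enolase, had 204 and 313 TPM at 48 h and 76.6 and 53.5 TPM at 4 h (1.97, adjusted p = 0.0197). These 4 were picked from the called members after their values were seen. In DMSO cells ENO2 had 55.3 and 91.0 TPM at 48 h and 39.7 and 38.0 TPM at 4 h (log2 difference 0.85, not called). Called glycolysis members were 0 without either 6D7 4 h library, 1 without 6D7 48 h replicate 1 and 8 without 6D7 48 h replicate 2.

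Some genes that HIF factors induce rose too. Of 22 tested hypoxia targets 5 were called higher and 0 lower, beside 1.82% of all genes called higher. The median of these targets was 1.41, against 0.48 in DMSO cells. Their summed level was 3493 and 4542 TPM at 48 h and 1978 and 1457 TPM at 4 h of 6D7. In DMSO cells it was 1633 and 2653 TPM at 48 h and 1649 and 1340.4 TPM at 4 h of DMSO. The second DMSO 48 h library thus stood above the 3 others of DMSO and below both of 6D7 at 48 h. BNIP3, a receptor that marks mitochondria for autophagy, had 362 and 355 TPM at 48 h and 70.6 and 102 TPM at 4 h of 6D7, against 73.4 and 126 TPM at 48 h and 71.5 and 95.7 TPM at 4 h of DMSO (6D7 log2 difference 2.07 ± 0.33, adjusted p = 0.0194). Both 48 h libraries of 6D7 lay above the 6 others. The related receptor BNIP3L had 242 and 199.95 TPM at 48 h and 47.3 and 48.1 TPM at 4 h of 6D7, against 31.7 and 80.9 TPM at 48 h and 34.4 and 40.2 TPM at 4 h of DMSO (6D7 log2 difference 2.18 ± 0.38, adjusted p = 0.0198). P4HA2, a collagen prolyl hydroxylase, had 123 and 88.2 TPM at 48 h and 40.6 and 29.3 TPM at 4 h (1.57 ± 0.28, adjusted p = 0.0206). VEGFA, the vascular growth factor, had 71.0 and 76.9 TPM at 48 h and 36.7 and 39.1 TPM at 4 h (0.95 ± 0.22, adjusted p = 0.0404). Called hypoxia members were 0 without either 6D7 4 h library or 6D7 48 h replicate 1, 3 without 6D7 48 h replicate 2, 3 without the filter on low values, and 11 with mitochondrial genes kept in the TPM total.

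The largest called rise, on the log2 scale, was that of IGFBP1, a secreted protein that binds insulin-like growth factors. It had 1639 and 836 TPM at 48 h against 74.6 and 57.9 TPM at 4 h of 6D7, and 40.2 and 139.6 TPM at 48 h against 40.7 and 48.3 TPM at 4 h of DMSO, so that the second DMSO 48 h library stood above the others of DMSO and far below those of 6D7. Its log2 difference under 6D7 was 4.13 ± 0.46 (adjusted p = 0.00555), and it lost its call in 1 of the 8 fits that left out a 6D7 or DMSO library (without 6D7 4 h replicate 2, adjusted p = 0.0743). MIR210HG, a long RNA of chromosome 11 (565657 to 568457, minus strand, GRCh38), had 34.6 and 24.0 TPM at 48 h and 2.43 and 1.24 TPM at 4 h (3.43 ± 0.59, adjusted p = 0.0197). MIR210, the hairpin gene at 568089 to 568198 inside it, was listed at 27.5 and 17.1 TPM at 48 h and 0.845 and 0 TPM at 4 h, and reads of the pair cannot be told apart. CEMIP, which breaks down hyaluronan, had 22.5 and 23.5 TPM at 48 h and 0.755 and 0.411 TPM at 4 h (3.93 ± 0.63, adjusted p = 0.0196).

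The mature strand of that microRNA, known as a target of HIF, is shown with its seed, bases 2 to 8, in capitals (RefSeq, GRCh38.p14, chr11:568112-568133, minus strand); libraries of polyA RNA did not measure it.
hsa-miR-210-3p: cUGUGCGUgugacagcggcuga

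The promoters of PGK1 and PFKFB4, chosen from the glycolysis list by the same rule as MCM3 and GINS2, are given with capitals at ACGTG on either strand, the core letters of HIF sites and also part of the lysosomal letters below. The windows are chrX:78103998-78104247, plus strand, and chr3:48556804-48557053, minus strand.
PGK1: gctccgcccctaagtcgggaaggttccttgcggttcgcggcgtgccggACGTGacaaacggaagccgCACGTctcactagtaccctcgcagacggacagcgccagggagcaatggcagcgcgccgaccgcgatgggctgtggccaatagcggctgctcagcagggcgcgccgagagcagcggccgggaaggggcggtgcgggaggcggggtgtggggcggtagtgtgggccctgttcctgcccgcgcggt
PFKFB4: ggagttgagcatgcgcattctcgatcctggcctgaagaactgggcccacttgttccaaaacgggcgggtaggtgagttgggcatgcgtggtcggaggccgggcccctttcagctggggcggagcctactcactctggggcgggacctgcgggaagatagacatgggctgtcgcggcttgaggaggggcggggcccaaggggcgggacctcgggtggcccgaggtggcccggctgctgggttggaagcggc
PGK1 held 2 matches and PFKFB4 held 0. Of 47 windows for 21 of the 22 list genes 17 (36.2%) held the letters, beside 22.1% of all windows of tested genes. The same letters stood in 41.2% of the lysosomal windows and 24% of the replication windows. The E2F letters stood in 23.4% of the glycolysis windows, beside 11.3% of all windows. The median GC content of the glycolysis windows was 68.4 percent, beside 64.4 percent in all windows. Over all tested members the letters thus do not single out this list. Of 18 windows of the 10 called glycolysis genes 10 (55.6%) held ACGTG and 16.7% held the E2F letters. ACGTG stood in 25.7% of the windows of called replication genes and 37.5% of those of called lysosomal genes. Binding by HIF was not tested.

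Part of the lysosome genes rose. Of 34 tested lysosomal hydrolases and membrane proteins 10 were called higher and 0 lower, beside 1.82% of all genes called higher. The list median was 0.75, against 0.21 in DMSO cells. CTSD, the protease cathepsin D, had 1764 and 2130.0 TPM at 48 h against 769 and 762 TPM at 4 h of 6D7, and 598 and 842 TPM at 48 h against 573 and 696 TPM at 4 h of DMSO (6D7 log2 difference 1.34 ± 0.22, adjusted p = 0.0196). CTSB, the protease cathepsin B, had 497 and 543 TPM at 48 h and 248 and 183 TPM at 4 h (1.28 ± 0.21, adjusted p = 0.0197). NEU1, the lysosomal sialidase, had 122 and 140.3 TPM at 48 h and 50.3 and 34.8 TPM at 4 h (1.62 ± 0.24, adjusted p = 0.0154), and its DMSO libraries had 26.6 and 27.0 TPM at 48 h and 25.7 and 22.9 TPM at 4 h. For all 3 both 48 h libraries of 6D7 lay above the 6 others.

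The called genes included lipid handling in the lysosome. NPC1, which passes cholesterol out of the lysosome, had 141 and 184 TPM at 48 h and 67.0 and 28.7 TPM at 4 h of 6D7 (1.85 ± 0.35, adjusted p = 0.0244). LIPA, the acid lipase that frees that cholesterol, had 124 and 144 TPM at 48 h and 68.5 and 48.1 TPM at 4 h (1.20 ± 0.29, adjusted p = 0.0441), a call lost in each of the 8 fits without 1 library. Among 18 TFE factors and Rag GTPase genes 2 were called higher: RRAGD, a Rag GTPase that TFEB induces, at 15.1 and 19.1 TPM at 48 h and 6.19 and 5.10 TPM at 4 h (1.44 ± 0.25, adjusted p = 0.0197), and RRAGA, which anchors mTORC1 at the lysosome, at 268 and 283 TPM at 48 h and 166 and 145 TPM at 4 h (0.83 ± 0.17, adjusted p = 0.0253). Of 15 V-ATPase genes 1 was called, ATP6AP1 (0.78), an accessory subunit of the proton pump. That call too was lost in all 8 such fits.

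All 26 autophagy genes had positive differences (median 0.57, against 0.13 in DMSO cells). Of the 26, 5 were called higher and 0 lower, beside 1.82% of all genes called higher. Beside BNIP3 and BNIP3L these included OPTN (optineurin), a receptor for ubiquitin-tagged cargo, at 159 and 104 TPM at 48 h and 68.1 and 58.1 TPM at 4 h of 6D7 (1.02 ± 0.19, adjusted p = 0.0244). SQSTM1 (p62), another cargo receptor, had 2597 and 1926 TPM at 48 h and 1401 and 1637 TPM at 4 h and was not called over time (0.56, adjusted p = 0.172), and DMSO had 709.7 and 678 TPM at 48 h and 787 and 1132 TPM at 4 h. Called lysosomal members were 1 without 6D7 4 h replicate 1 or 6D7 48 h replicate 1, 0 without 6D7 4 h replicate 2 and 6 (with 1 lower) without 6D7 48 h replicate 2, and called autophagy members were 0, 0, 0 and 5 without these libraries. With mitochondrial genes kept in the TPM total 20 lysosomal and 12 autophagy genes were called higher, among 1503 genes called higher in all.

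NEU1 and CTSD, again by that rule, are shown with capitals at TCACGTG on either strand, the core letters of the element that TFEB reads, at chr6:31862822-31863071, minus strand, and chr11:1763928-1764177, minus strand.
NEU1: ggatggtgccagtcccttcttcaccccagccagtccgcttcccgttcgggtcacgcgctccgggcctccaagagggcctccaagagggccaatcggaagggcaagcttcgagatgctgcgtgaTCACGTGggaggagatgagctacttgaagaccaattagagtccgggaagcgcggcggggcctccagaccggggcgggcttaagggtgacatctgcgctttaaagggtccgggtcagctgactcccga
CTSD: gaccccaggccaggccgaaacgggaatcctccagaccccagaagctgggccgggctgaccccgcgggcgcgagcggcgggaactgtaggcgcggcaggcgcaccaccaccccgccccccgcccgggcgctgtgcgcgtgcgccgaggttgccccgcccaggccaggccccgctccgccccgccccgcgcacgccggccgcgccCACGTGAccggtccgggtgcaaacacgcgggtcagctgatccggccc
Each held 1 match. Of 34 windows for 24 of the 34 list genes 8 (23.5%) held the letters, beside 4.76% of all windows of tested genes. The median GC content was 69.2 percent in the list windows and 64.4 percent in all windows. Binding by TFEB was not tested.

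**Figure D3:**
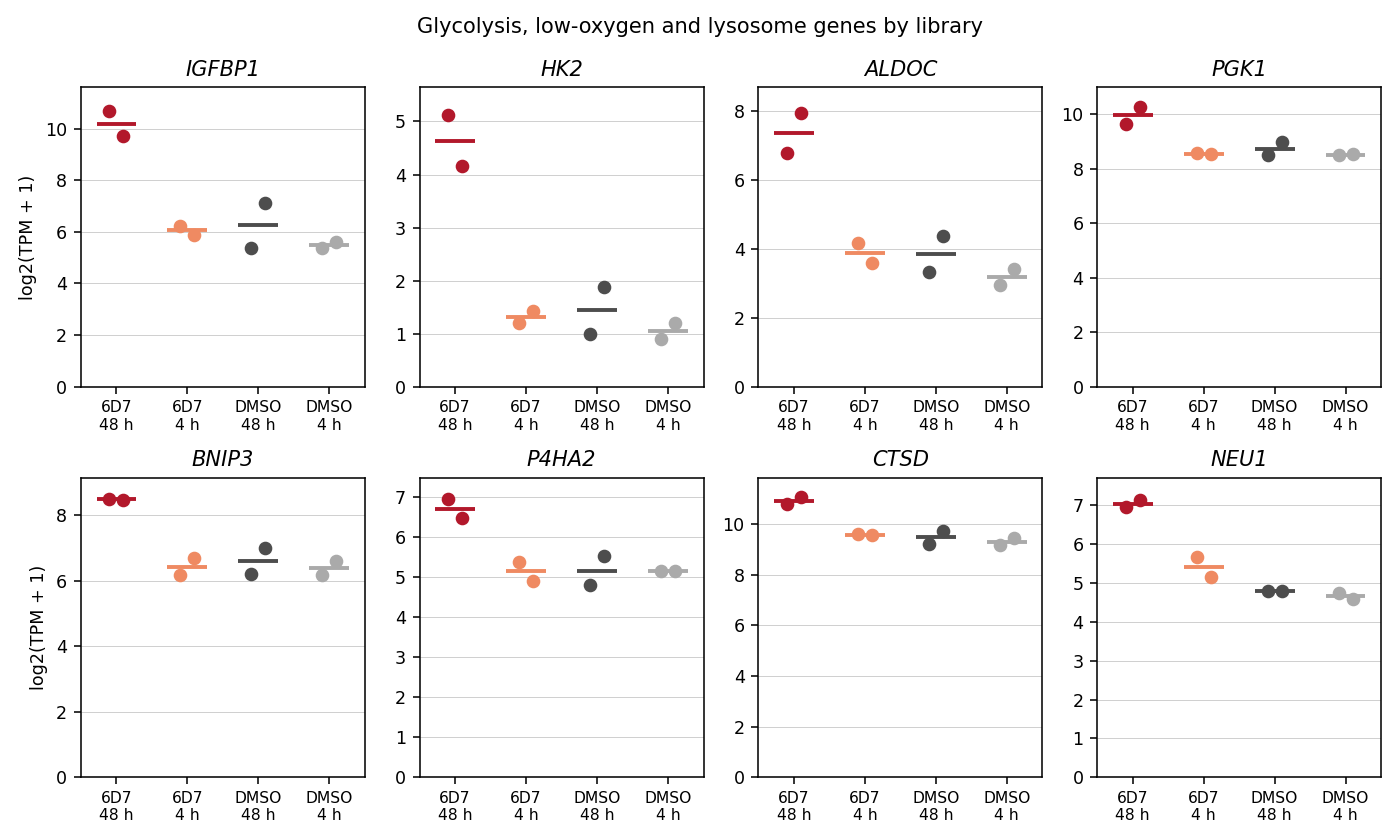
Levels of 8 genes called higher at 48 h than at 4 h of 6D7 as log2(TPM + 1) in each library of 6D7 at 48 h and 4 h and of DMSO at 48 h and 4 h; points are the 2 replicates and bars their mean. Both 48 h libraries of 6D7 lie above the other 6 in every panel.

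Inflammatory and matrix genes gave fewer calls. Of 33 NF-kB and inflammatory genes 3 were called higher, beside 1.82% of all genes (list median 0.80, against 0.14 in DMSO cells). SOD2, the mitochondrial superoxide dismutase, had 1665 and 804 TPM at 48 h and 374 and 336 TPM at 4 h of 6D7 (1.70 ± 0.28, adjusted p = 0.0197), IL6, a cytokine, had 66.0 and 37.5 TPM at 48 h and 17.4 and 11.2 TPM at 4 h (1.76 ± 0.41, adjusted p = 0.0401), and CSF3 (G-CSF) had 43.8 and 10.1 TPM at 48 h and 2.56 and 2.80 TPM at 4 h (2.598 ± 0.50, adjusted p = 0.025). The first 48 h replicate was the higher one for all 3. CXCL8 (interleukin 8) had 603 and 223 TPM at 48 h and 111 and 104 TPM at 4 h and did not pass (1.77, adjusted p = 0.249). Called members of the NF-kB list were 0 without either 6D7 4 h library or 6D7 48 h replicate 1 and 12 without 6D7 48 h replicate 2. None of 28 interferon-stimulated genes was called, with 3 at an unadjusted p below 0.05.

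Of 30 mesenchymal and matrix genes 5 were called higher, beside 1.82% of all genes, while the list median was 0.06. LOXL2, which crosslinks collagen, had 351 and 575 TPM at 48 h and 124 and 122 TPM at 4 h of 6D7 (1.86 ± 0.32, adjusted p = 0.0197), and ITGA5, the fibronectin receptor subunit, had 107 and 120.5 TPM at 48 h and 33.4 and 22.4 TPM at 4 h (2.01 ± 0.41, adjusted p = 0.0256). KRT19, a keratin of simple epithelia, was the 1 called of 20 epithelial genes, at 263 and 352 TPM at 48 h and 50.4 and 78.8 TPM at 4 h (2.25 ± 0.47, adjusted p = 0.0281). DDC, the decarboxylase that makes dopamine, had 0.836 and 1.26 TPM at 48 h and 7.53 and 6.90 TPM at 4 h of 6D7, against 9.95 and 8.40 TPM at 48 h and 6.93 and 6.40 TPM at 4 h of DMSO (6D7 log2 difference -2.01 ± 0.22, adjusted p = 0.00555). The difference of DDC from its DMSO change was -2.42 ± 0.32 (adjusted p = 0.0645), just outside the threshold.

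Among exosome genes 1 call was made (3.03%), beside 1.82% of all genes called higher. CD63, whose count includes the introduced fusion as far as its reads fall on CD63, had 2733 and 2186 TPM at 48 h and 2104 and 1522 TPM at 4 h of 6D7 (0.45 ± 0.24, adjusted p = 0.305). SDCBP (syntenin), a scaffold that loads cargo into exosomes and the 1 called of 33 exosome and release genes, had 481 and 479.9 TPM at 48 h and 221 and 222 TPM at 4 h (1.11 ± 0.22, adjusted p = 0.0254), close within each pair of replicates. RAB27A, which docks exosome-bearing bodies, had 9.01 and 16.1 TPM at 48 h and 7.97 and 8.82 TPM at 4 h (0.48 ± 0.34, adjusted p = 0.456). None of 12 AMPK subunit and kinase genes was called, with 0 at an unadjusted p below 0.05, and PRKAA1, a catalytic subunit, had 23.5 and 38.4 TPM at 48 h and 32.3 and 32.8 TPM at 4 h (-0.11 ± 0.27, and 0.19 with mitochondrial genes kept).

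Of 30 tested NRF2 targets 1 was called lower (3.33%) and 0 higher, beside 1.79% of all genes called lower. The list median was -0.50, against -0.12 in DMSO cells. OSGIN1, an oxidative stress-induced growth inhibitor, had 37.2 and 41.3 TPM at 48 h against 164 and 179.6 TPM at 4 h of 6D7, and 85.4 and 45.3 TPM at 48 h against 114 and 154 TPM at 4 h of DMSO (6D7 log2 difference -2.10 ± 0.35, adjusted p = 0.0197). Its DMSO difference was -1.08, not called, which is over 50 percent of the 6D7 change. NQO1, a classic NRF2 target, had 739 and 1511 TPM at 48 h and 1605 and 1932 TPM at 4 h in 6D7 cells (-0.74, adjusted p = 0.146).

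The remaining lists gave few calls between 48 h and 4 h of 6D7, where 1.82% of all genes were called higher and 1.79% lower. Of 20 genes of cholesterol uptake, transfer and efflux 3 were called higher (median 0.48, against 0.35 in DMSO cells), NPC1 and LIPA among them. Of 31 proteasome genes 2 were called lower (median -0.36, against -0.11 in DMSO cells), and of 20 aminoacyl-tRNA synthetase genes 1 was (median -0.26, against 0.15). Among 25 chaperones and unfolded protein genes of the endoplasmic reticulum 1 was called higher, as was 1 of 19 acute-phase and complement genes, and 1 of 13 mucin and secretory genes was called lower. None was called among 22 triglyceride and lipid droplet genes (7 at an unadjusted p below 0.05), 11 replication-dependent histones (5), 5 metallothioneins (1) and 5 genes of glucose sensing (2).

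Changes against DMSO at each time sorted the genes into early and late. At 4 h of 6D7 limma called 0 genes against DMSO at 4 h (0%), with 180 at an unadjusted p below 0.05. At 48 h it called 953 against DMSO at 48 h (5.97%), 381 higher (2.39%) and 572 lower (3.58%), and 430 of the 575 genes called over time were among them with the same sign. The count at 48 h was 13 without DMSO 48 h replicate 1, 325 without DMSO 48 h replicate 2, 136 without 6D7 48 h replicate 1, 1765 without 6D7 48 h replicate 2 and 634 without either DMSO 4 h library. The comparison over time and that against DMSO share the 48 h libraries of 6D7.

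Some genes lay close to DMSO at 4 h and were called against it at 48 h, a late change. A late class that also required a called difference from the DMSO change had 0 genes. A looser class, set after the values were seen, held 609 of the 15958 tested genes, 214 higher and 395 lower. It asked for a call against DMSO at 48 h of at least 2-fold without overlap. At 4 h it asked for a difference under 0.5 on the log2 scale. The other classes below ask for a 2-fold difference at 4 h, where 0 genes were called. Class sizes therefore cannot show which form was common. The DNA replication list had a median of -0.21 against DMSO at 4 h with 0 of 45 at an unadjusted p below 0.05. At 48 h its median was -2.10 with 39 called lower, beside 3.58% of all genes. Glycolysis had medians of 0.03 at 4 h and 0.56 at 48 h (9 called higher), and lysosomal genes 0.17 and 0.69 (13 called higher). Over all genes 2.39% were called higher at 48 h. Late genes by this measure included MCM3 (-0.17 at 4 h, -2.24 at 48 h), HK2 (0.27 and 3.20) and CTSD (0.28 and 1.45).

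Some ATF4 targets and sterol genes stood apart from DMSO at 4 h by size, though 0 genes were called there. A difference of at least 2-fold from DMSO at 4 h with no overlap of libraries was seen in 105 genes (0.658%), beside 1591 (9.97%) by the same measure at 48 h, and 41 genes (0.257%) kept at least 2-fold in the same direction without overlap at 48 h as well, 35 higher and 6 lower. Of these sustained genes 26 were called against DMSO at 48 h. These classes are descriptions and carry no test at 4 h. TRIB3, an ATF4-induced inhibitor of the kinase AKT, had 455 and 645 TPM at 48 h and 388 and 408 TPM at 4 h of 6D7, against 85.2 and 118 TPM at 48 h and 101 and 98.1 TPM at 4 h of DMSO. The difference from DMSO was 1.99 at 4 h (adjusted p = 0.871) and 2.42 at 48 h (adjusted p = 0.0105), and between 48 h and 4 h of 6D7 it did not pass (0.44 ± 0.41, adjusted p = 0.576). Its libraries at both times lay above all 4 of DMSO.

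CHAC1, a glutathione-degrading ATF4 target, had 24.3 and 19.3 TPM at 48 h and 17.7 and 45.8 TPM at 4 h of 6D7, against 5.47 and 4.15 TPM at 48 h and 7.46 and 6.69 TPM at 4 h of DMSO (differences from DMSO 1.88 at 4 h and 1.97 at 48 h). DDIT3 (CHOP), a stress transcription factor, had 139 and 124 TPM at 48 h and 57.9 and 362 TPM at 4 h of 6D7, the second 4 h replicate far above the first, against 32.7 and 29.3 TPM at 48 h and 31.3 and 64.0 TPM at 4 h of DMSO. At 4 h the 6D7 and DMSO libraries thus overlapped for DDIT3. ATF4 itself had 938 and 622 TPM at 48 h and 630.0 and 723 TPM at 4 h of 6D7 and 415 and 364 TPM at 48 h and 462 and 399 TPM at 4 h of DMSO (called at 48 h, 0.97, adjusted p = 0.0166). The ATF4 list had medians of 0.67 against DMSO at 4 h and 0.68 at 48 h, and 0.13 between the times of 6D7, where 2 of 38 were called higher and 1 lower. SLC3A2, the heavy chain of amino acid exchangers and the 1 called lower, had 503 and 592 TPM at 48 h and 1311 and 1291 TPM at 4 h of 6D7 (-1.25 ± 0.30, adjusted p = 0.0441, lost in all 8 fits without 1 library), with DMSO at 992 and 707 TPM at 48 h and 1013 and 974 TPM at 4 h. ASNS (asparagine synthetase) had 51.8 and 54.9 TPM at 48 h and 68.2 and 103 TPM at 4 h under 6D7 and 39.8 and 40.2 TPM at 48 h and 48.3 and 37.7 TPM at 4 h under DMSO, with both 4 h libraries of 6D7 the highest.

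Of 26 sterol synthesis genes 15 were called higher and 1 lower against DMSO at 48 h, beside 2.39% and 3.58% of all genes. At 4 h 0 were called, as over all genes, with 9 at an unadjusted p below 0.05. The median difference from DMSO was 0.81 at 4 h, with 26 of 26 positive, and 1.67 at 48 h, with 24 of 26 positive. Over all genes the medians were 0.0063 at 4 h and -0.0614 at 48 h. Between 48 h and 4 h of 6D7 the median was 1.11 with 0 of 26 called and 20 at an unadjusted p below 0.05, against 0.15 in DMSO cells. With mitochondrial genes kept in the TPM total 13 of the 26 were called higher over time. In that setting 1503 genes were called higher in all, and the median of all genes was 0.37 in place of 0.11. Their summed level was 5464 and 5716 TPM at 48 h and 3022 and 1901 TPM at 4 h of 6D7. In DMSO cells it was 1639 and 1610 TPM at 48 h and 1399 and 1507 TPM at 4 h of DMSO. INSIG1, an anchor that holds SREBP back when sterol is ample, had 463 and 313 TPM at 48 h and 197 and 97.7 TPM at 4 h of 6D7, against 38.6 and 32.0 TPM at 48 h and 29.2 and 49.1 TPM at 4 h of DMSO (differences 1.85 at 4 h and 3.40 at 48 h, called at 48 h with adjusted p = 0.0104). The first 4 h replicate of 6D7 was the higher one for the sum and for INSIG1.

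Fatty acid genes gave 2 calls over time among 21 (median 0.69, against 0.56 in DMSO cells). ACSS2, which turns acetate into acetyl-CoA, had 97.8 and 235 TPM at 48 h and 33.1 and 13.3 TPM at 4 h of 6D7 (2.79 ± 0.55, adjusted p = 0.0252). SCD, the desaturase that makes oleate, was uneven, with 1188 and 7141 TPM at 48 h and 1143 and 504 TPM at 4 h of 6D7, and did not pass (1.94 ± 0.72, adjusted p = 0.151). PLIN2, which coats lipid droplets, was in the sustained class with 366 and 908 TPM at 48 h and 132 and 166 TPM at 4 h, against 52.4 and 123 TPM at 48 h and 47.2 and 49.5 TPM at 4 h of DMSO. LPIN1, a phosphatidate phosphatase, was sustained as well, with 72.3 and 106 TPM at 48 h and 47.4 and 30.7 TPM at 4 h against 11.9 and 24.1 TPM at 48 h and 12.6 and 15.96 TPM at 4 h. RRAGD, called over time, was in that class too, with differences from DMSO of 1.08 at 4 h and 2.35 at 48 h.

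**Figure D4:**
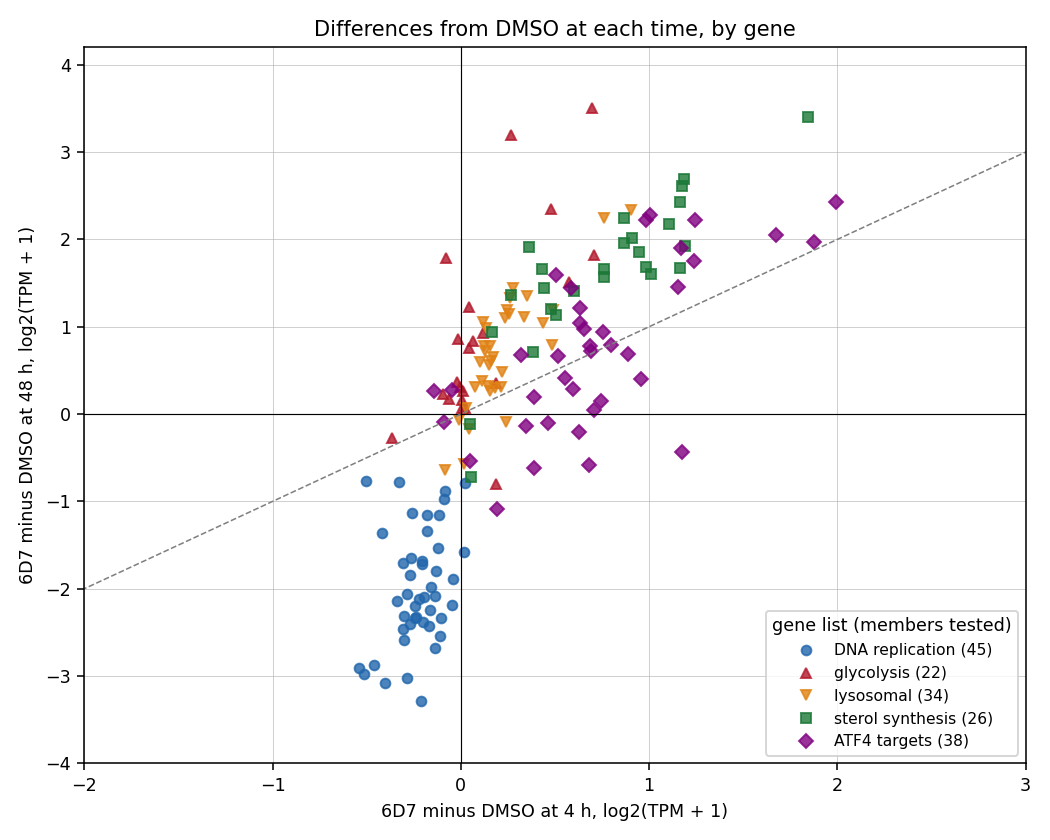
Difference of 6D7 from DMSO at 4 h (horizontal) and at 48 h (vertical) on log2(TPM + 1) for the tested members of 5 gene lists; on the dashed line both are equal. At 4 h the list medians are -0.21 for replication, 0.03 for glycolysis, 0.17 for lysosomal, 0.67 for ATF4 and 0.81 for sterol genes, and 26 of 26 sterol genes lie right of 0.

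**Figure D5:**
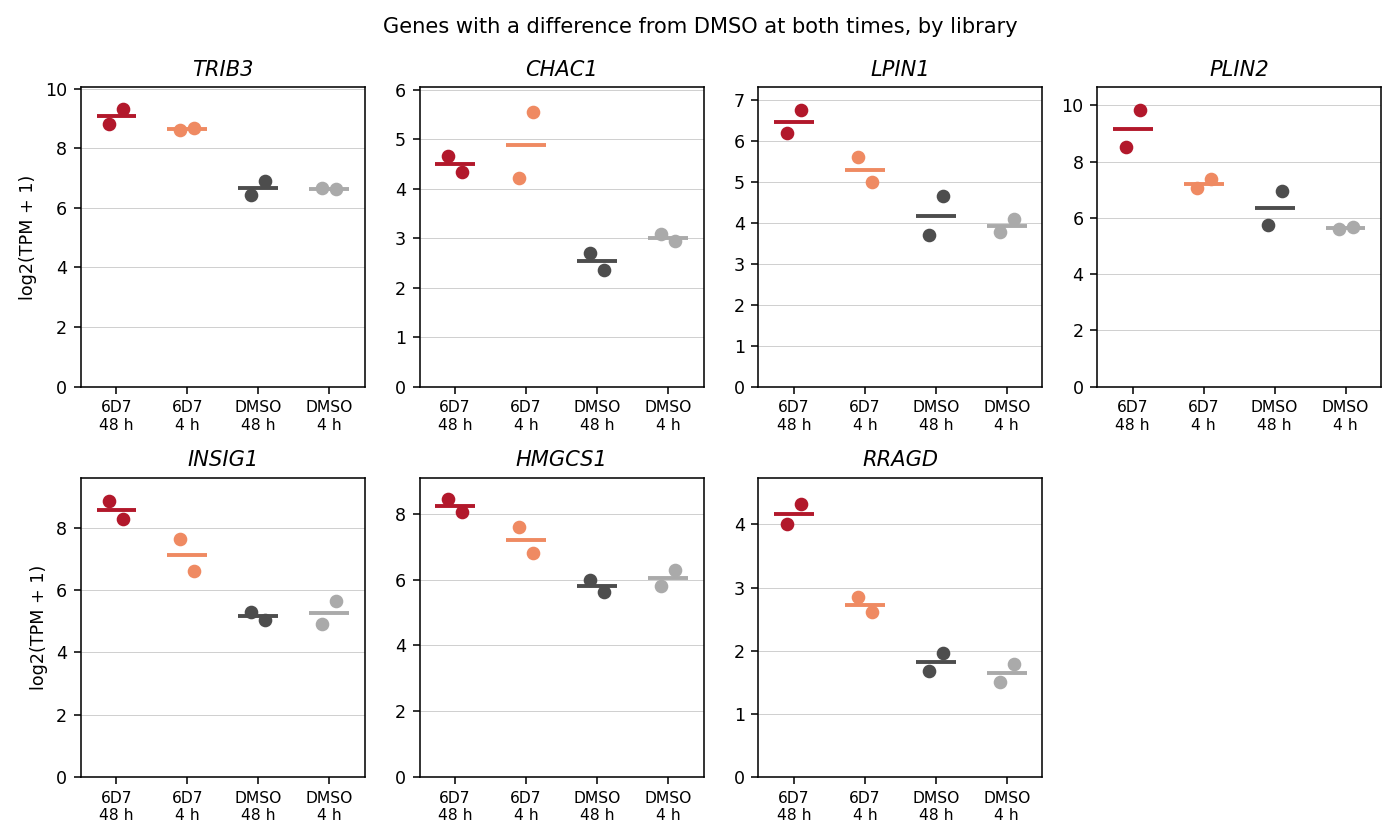
Levels of 7 genes as log2(TPM + 1) in each library of 6D7 at 48 h and 4 h and of DMSO at 48 h and 4 h; points are the 2 replicates and bars their mean. Each gene stands above DMSO without overlap at both times, which the sustained class required of its members.

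Few genes met the measure used for a transient change. A difference of at least 2-fold at 4 h without overlap that was under 0.5 on the log2 scale at 48 h was seen in 29 genes (0.182%), 12 higher and 17 lower at 4 h, and 4 genes were apart by that size in opposite directions at the 2 times. JDP2, a repressor of AP-1, had 12.5 and 7.23 TPM at 48 h and 14.9 and 29.6 TPM at 4 h of 6D7, against 16.5 and 10.5 TPM at 48 h and 13.7 and 5.47 TPM at 4 h of DMSO (differences 1.18 at 4 h and -0.43 at 48 h). ZNHIT2, a zinc-finger protein gene, was listed at 26.5 and 15.96 TPM at 48 h and 0 and 29.0 TPM at 4 h of 6D7, so the first 4 h library set its place. TRIM39-RPP21, a readthrough of neighbouring genes whose reads cannot be told apart from theirs, was listed at 0 in both 48 h libraries and above 0 in both 4 h libraries of 6D7. Among 28 immediate early genes 0 were called between 48 h and 4 h, with 6 at an unadjusted p below 0.05.

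Under the other compounds the replication, glycolysis and lysosomal lists had medians of the same sign. Between 48 h and 4 h limma called 288 genes (1.8%) with 5G6, 0.865% of all genes higher and 0.94% lower, and 888 (5.56%) with 7F8, 2.98% higher and 2.58% lower. These comparisons share no library with that of 6D7, but their p-values rest on a spread pooled over all 16 libraries. The DNA replication list had 11 and 30 of 45 called lower with 5G6 and 7F8 (medians -1.35 and -1.50), glycolysis 9 and 6 of 22 called higher (0.81 and 0.38), and lysosomal genes 8 and 18 of 34 called higher (0.72 and 0.98). The difference in time change between 6D7 and 5G6, and between 6D7 and 7F8, was called in 1 gene each (0.00627%), with 188 and 717 genes at an unadjusted p below 0.05. That gene was ISY1-RAB43 in both. The median over p53 targets was 0.69 with 6D7, 0.18 with 5G6 and -0.14 with 7F8, and this carries no test.

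Single genes gave wide errors. HK2 changed by 3.32 with 6D7, 2.78 with 5G6 and 2.77 with 7F8, and 6D7 exceeded 5G6 by 0.54 ± 0.56 (SE, adjusted p = 1). IGFBP1 changed by 4.13 with 6D7, 4.11 with 5G6 and 1.73 with 7F8, a difference of 2.40 ± 0.66 between 6D7 and 7F8 (adjusted p = 1). KRT19 changed by 2.25, 2.01 and -0.42, with a 6D7 minus 7F8 difference of 2.67 ± 0.66 (adjusted p = 1). A p above the threshold does not show that the compounds act alike.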

How the data were processed

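Each library had a deposited gene abundance table. TPM values were made by the authors and, per the file headers, stand beside FPKM and coverage for each gene. FPKM and coverage values deposited by the authors were used to estimate aligned bases. The submitters' processing notes name STAR 2.6.1a, featureCounts 1.6.3, StringTie 2.0 and GRCh38, with no role or order. Strand was not given in the sources used here. TRIzol extraction, a DNase I step and polyA libraries from a NEBNext Ultra kit are given per the labels' protocols.

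TPM was added by gene name, genes of chromosome M were left out, and the rest was rescaled to a common total. A TPM of 1 or more in 2 or more of the 16 libraries was required, and the genes that met it (15958 of 26156 above 0) entered limma 3.58.1 (R 4.3.3) on log2(TPM + 1), with 8 group means, an intensity trend and Benjamini-Hochberg adjustment over all tested genes, two-sided, called below 0.05. Fold changes on this scale understate those of low genes. With 2 samples a group, 8 residual degrees of freedom were shared. The 39 gene lists (1045 entries), the classes and the members were chosen with earlier results of these data known. Genes named are, by rule, the 8 largest called changes each way with mean TPM of at least 5 and no overlap, the 3 members of smallest p in each list, the 5 largest of each time class and a fixed set; others are named as picked after their values were seen. A few list members are given by their change alone. Promoters and the microRNA came from RefSeq tables of GRCh38.p14, which gave windows for 11264 of the tested genes. Tables were read with Python 3.11.15 and pandas 2.3.3, and figures drawn with matplotlib 3.10.9. The procedure was tested on simulated data with independent noise in each library. That test does not cover a part shared by same-numbered samples. Alternatives were a pseudocount of 0.1, no filter and a filter at TPM of 5, deposited TPM with chromosome M, no variance trend, median-of-ratios scaling with size factors of 0.871 to 1.16, only the libraries of the contrast, a replicate block, and leaving out each library. The fit without nuclear genes of up to 200 bases was added after the data were seen.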

Additional observations from a re-analysis of the deposited data

Results flagged for a closer look

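ISY1-RAB43, the readthrough annotated across the neighbouring genes ISY1, a splicing factor, and RAB43, a Rab GTPase (chromosome 3, 129087569 to 129161230, minus strand, GRCh38), was listed at 11.6 and 9.39 TPM in the 48 h libraries of 6D7, at 0 in both 4 h libraries of 6D7, and at 1.03 and 0 TPM at 48 h and 0 at 4 h of DMSO. Its change over time under 6D7 exceeded that under 5G6 and that under 7F8 by 3.52 on the log2 scale each (limma, adjusted p = 0.0407 for both), which is why it stands here as a difference between treatments. ISY1 had 9.93 and 11.04 TPM at 48 h and 16.8 and 16.5 TPM at 4 h of 6D7, and RAB43 had 8.23 and 10.2 TPM at 48 h and 8.94 and 5.39 TPM at 4 h. Reads of the 3 overlapping genes cannot be told apart in these tables, and neither call held with a pseudocount of 0.1, with median-of-ratios scaling or at a filter of TPM of 5 (0 genes called each).

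TRNY, a mitochondrial tRNA gene outside the comparisons above, was listed at 5984 and 4738 TPM as deposited in the 48 h libraries of 6D7 and at 0 in the other 14. TRNC, which overlaps its end on the same strand, was listed at 0 in those 2 libraries and at 153234 to 286119 TPM in the other 14. Counts of calls with chromosome M kept are given with the other settings.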

How the results depend on the processing

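Whether the replicate numbers pair the samples was not settled. Deviations of same-numbered samples correlated positively between groups in every case, by 0.0536 to 0.588, and by 0.0878 between the 6D7 groups. The reported fit does not model such a shared part. With a replicate block limma called 885 higher and 835 lower between 48 h and 4 h of 6D7, all 575 reported genes among them, 2000 against DMSO at 48 h, and 3 higher and 1 lower in the difference from the DMSO change; over time this block gave 34 mitosis genes lower and 6 sterol genes higher. With chromosome M kept the counts were 1503 and 156 over time, 4 and 2 in that difference, 1899 against DMSO at 48 h, and 3 and 4 in the differences from 5G6 and 7F8. Fitted to the groups of a contrast alone it called 0 over time in either direction, 0 against DMSO at 48 h and 0 against 5G6 or 7F8. Without the filter on low values it called 10 higher and 6 lower in the difference from DMSO, 1 against DMSO at 4 h, 20 against 5G6 and 15 against 7F8. A pseudocount of 0.1 gave 1 at 4 h against DMSO and 0 for 5G6 and for 7F8; a filter of TPM of 5 and median-of-ratios scaling also gave 0 for both. Variance without the trend gave 2 higher and 1 lower in the difference from DMSO.

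Leaving out 1 library at a time gave 4 to 597 higher and 0 to 625 lower over time, 0 to 71 higher and 0 to 105 lower in the difference from the DMSO change, 0 to 1 against DMSO at 4 h, 13 to 1765 at 48 h, 0 to 1 against 5G6 and 0 to 14 against 7F8. Among genes named, signs turned for 8 that were not called: with chromosome M kept DDIT3 was 0.16, PRKAA1 0.19 and TFEB 0.034, and over single libraries left out ATF4 ranged over -0.12 to 0.47, CHAC1 over -1.05 to 0.28, COL1A1 over -1.90 to 0.25, DDIT3 over -1.45 to 1.17, KRT8 over -0.95 to 0.20, PRKAA1 over -0.45 to 0.23, TFEB over -0.78 to 0.37 and ZNHIT2 over -0.47 to 4.43.

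With 2 libraries a group, precision limits every p here, and the cause of the uneven replicates was not tested.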

Other observations

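Most called genes stood in none of the prepared lists: 242 of the 290 higher and 221 of the 285 lower between 48 h and 4 h of 6D7. The genes named here were picked from them after their values were seen. Among the lower ones were genes of DNA repair: FANCD2 of the crosslink repair pathway had 1.68 and 6.04 TPM at 48 h and 13.9 and 17.5 TPM at 4 h (log2 -1.94, limma adjusted p = 0.037), and UNG, which removes uracil from DNA, had 22.0 and 42.5 TPM at 48 h and 75.0 and 96.4 TPM at 4 h (-1.44, adjusted p = 0.0278). HMGB2, a chromatin protein, had 17.4 and 35.2 TPM at 48 h and 79.9 and 169 TPM at 4 h (-2.19, adjusted p = 0.0438).

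Among the higher ones, CSTB (cystatin B), an inhibitor of cathepsins, had 1334 and 1143 TPM at 48 h and 382 and 351 TPM at 4 h of 6D7, against 285 and 279 TPM at 48 h and 258 and 316 TPM at 4 h of DMSO (6D7 log2 1.75, adjusted p = 0.0119), so that it stood above all 6 other libraries while CTSB and CTSD were called higher too. CDA, which recycles cytidine, had 295 and 217 TPM at 48 h and 76.2 and 48.9 TPM at 4 h (2.03, adjusted p = 0.0131). APOL1, an apolipoprotein L, had 67.6 and 114 TPM at 48 h and 18.6 and 19.6 TPM at 4 h (2.14, adjusted p = 0.0197), and its neighbour APOL2 had 182 and 133 TPM at 48 h and 42.0 and 38.8 TPM at 4 h (1.92, adjusted p = 0.0238). CITED2, which competes with HIF for its coactivators, had 111 and 94.3 TPM at 48 h and 20.8 and 22.0 TPM at 4 h under 6D7 (2.21, adjusted p = 0.0345), and 16.03 and 59.1 TPM at 48 h and 14.5 and 19.3 TPM at 4 h under DMSO, where the 48 h replicates were uneven.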
